A study of Mus musculus with 36 samples.

Results

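Accessible chromatin around Myc was described over 66 regions, of 105005 in the whole series. Peaks that shared at least 1 bp, from any of the 36 libraries, were joined into regions, and those whose centre lay on chromosome 15 between positions 61900000 and 63900000 (mm10) were taken, a window that holds Myc, the long non-coding RNA gene Pvt1 and the distal blood enhancer cluster. Each region is named by the distance of its centre from the Myc transcription start site (position 61985391, plus strand) in whole kb, with the decimals dropped and + for the direction of transcription, and the region over the start site itself is called Myc start. A library called a region if 1 or more of its peaks lay there. The strength of the call was the highest fold enrichment of those peaks, the ratio of local transposase cuts to the background that the peak caller expected.

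The study compared hematopoietic stem and progenitor cells of young (10 weeks) and aged (20 months) C57BL/6 mice, female according to the methods, by ATAC-seq, in which a transposase cuts open chromatin and the ends of its fragments are sequenced. All cells were sorted from bone marrow, and 20000 cells entered each library. Hematopoietic stem cells (HSCs, sorted as Lin- Sca-1+ c-kit+ cells with CD150 but without CD34, CD48 or Flt3) had 4 libraries per age, and 7 progenitor fractions had 2 libraries per age. These were the multipotent progenitors MPP1 (CD34+ CD150+ CD48- Flt3-), MPP2 (CD34+ CD150+ CD48+ Flt3-), MPP3 (CD34+ CD150- CD48+ Flt3-) and MPP4 (CD34+ CD150- CD48+ Flt3+), all Lin- Sca-1+ c-kit+. The others were the granulocyte-macrophage progenitors (GMPs: Lin- Sca-1- c-kit+ FcgR+ CD34+), the megakaryocyte-erythrocyte progenitors (MEPs: Lin- Sca-1- c-kit+ FcgR- CD34-) and the common lymphoid progenitors (CLPs: Lin- with low Sca-1 and c-kit). By the labels CLPs were sorted as IL-7+ and all other fractions as IL-7-, by an antibody to the IL-7 receptor. Since the study pooled marrow of several mice and sorted it in duplicate, p-values measure the spread between libraries and may not cover that between animals.

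Myc encodes a basic helix-loop-helix transcription factor that binds DNA with its partner Max and drives growth, ribosome production and division in many cells. In HSCs its level is tied to the balance between self-renewal and differentiation. In blood cells its transcription depends on a cluster of enhancers far downstream, beyond Pvt1, whose single modules are known to be used in different cell types. An accessible region marks where such elements may be bound, but it is not a measure of Myc transcription.

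The sequences of 7 distal regions follow, since they make up the shared part of the distal enhancer cluster, and are all those more than 1600 kb downstream of Myc that were called in at least 18 of the 36 libraries. All 7 lay in introns of the long non-coding RNA gene Gm41335 (minus strand) and together spanned 94 kb. Each sequence covers 201 bases of the plus strand centred on the median peak summit (mm10, read from the RefSeq GRCm38 assembly). Capitals mark matches on either strand to the motifs spelled out further on.
+1625 kb, chr15:63611209-63611409: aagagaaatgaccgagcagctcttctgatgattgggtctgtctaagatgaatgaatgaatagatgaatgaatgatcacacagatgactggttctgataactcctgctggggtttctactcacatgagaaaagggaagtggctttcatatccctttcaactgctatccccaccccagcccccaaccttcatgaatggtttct
+1631 kb, chr15:63616921-63617121: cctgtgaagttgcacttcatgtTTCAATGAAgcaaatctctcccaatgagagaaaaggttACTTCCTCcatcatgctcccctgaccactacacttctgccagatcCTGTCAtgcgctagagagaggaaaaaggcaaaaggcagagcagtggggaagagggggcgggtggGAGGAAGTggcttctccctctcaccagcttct
+1662 kb, chr15:63648300-63648500: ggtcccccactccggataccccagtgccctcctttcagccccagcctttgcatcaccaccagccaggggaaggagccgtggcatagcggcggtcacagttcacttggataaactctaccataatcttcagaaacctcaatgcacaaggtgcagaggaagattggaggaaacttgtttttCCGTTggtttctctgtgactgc
+1672 kb, chr15:63658156-63658356: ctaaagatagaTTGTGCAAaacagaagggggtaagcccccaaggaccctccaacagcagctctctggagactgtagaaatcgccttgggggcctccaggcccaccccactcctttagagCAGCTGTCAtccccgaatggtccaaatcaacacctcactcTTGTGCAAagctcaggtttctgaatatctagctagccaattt
+1680 kb, chr15:63665537-63665737: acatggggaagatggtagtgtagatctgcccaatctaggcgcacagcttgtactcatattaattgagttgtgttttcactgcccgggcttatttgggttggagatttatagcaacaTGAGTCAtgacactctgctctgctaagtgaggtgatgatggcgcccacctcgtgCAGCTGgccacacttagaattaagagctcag
+1693 kb, chr15:63678971-63679171: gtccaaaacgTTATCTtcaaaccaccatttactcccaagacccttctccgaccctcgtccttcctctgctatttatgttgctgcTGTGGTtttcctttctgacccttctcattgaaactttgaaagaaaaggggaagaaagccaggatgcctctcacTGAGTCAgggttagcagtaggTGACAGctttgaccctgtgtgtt
+1719 kb, chr15:63704790-63704990: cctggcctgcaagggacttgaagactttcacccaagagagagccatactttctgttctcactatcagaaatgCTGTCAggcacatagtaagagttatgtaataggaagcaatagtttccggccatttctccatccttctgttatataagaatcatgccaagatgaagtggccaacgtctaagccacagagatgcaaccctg

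A further 4 sequences, all in introns, show regions that differed between fractions: +142 kb and +221 kb (Pvt1), which every HSC library and some MPP libraries called, and +166 kb (Pvt1) and +1512 kb (Gm41335), which were called in GMPs alone.
+142 kb, chr15:62127882-62128082: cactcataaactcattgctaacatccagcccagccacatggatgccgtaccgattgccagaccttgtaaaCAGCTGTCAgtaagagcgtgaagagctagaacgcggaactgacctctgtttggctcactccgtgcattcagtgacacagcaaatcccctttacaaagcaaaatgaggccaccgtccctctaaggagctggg
+221 kb, chr15:62206562-62206762: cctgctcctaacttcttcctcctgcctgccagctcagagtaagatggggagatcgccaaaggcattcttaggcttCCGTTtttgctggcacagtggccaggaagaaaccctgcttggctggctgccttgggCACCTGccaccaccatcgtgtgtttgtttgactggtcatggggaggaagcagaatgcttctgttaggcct
+166 kb, chr15:62152277-62152477: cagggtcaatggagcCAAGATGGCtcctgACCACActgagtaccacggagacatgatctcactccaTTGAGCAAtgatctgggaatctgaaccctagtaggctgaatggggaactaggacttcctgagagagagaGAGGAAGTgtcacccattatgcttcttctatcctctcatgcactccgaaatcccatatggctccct
+1512 kb, chr15:63497261-63497461: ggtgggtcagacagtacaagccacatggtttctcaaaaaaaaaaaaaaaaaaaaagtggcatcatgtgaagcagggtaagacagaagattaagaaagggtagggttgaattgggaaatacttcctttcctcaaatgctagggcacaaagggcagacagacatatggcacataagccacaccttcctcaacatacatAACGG

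The 66 regions were unevenly spread over the 2 Mb. One region lay well upstream of Myc (-57 kb), 3 at or beside the gene (-1 kb, Myc start and +7 kb), 22 from +14 kb to +266 kb, mostly in introns of Pvt1, 18 in the long stretch from +302 kb to +1513 kb, and 22 in the distal part from +1616 kb to +1910 kb. Myc start (chr15:61984836-61985745, over exon 1 of Myc) was the one region called in all 36 libraries. Across the catalogue, 5.08% of regions were. A total of 12 regions were called in at least 18 libraries: Myc start, -1 kb, +52 kb at the start of Pvt1, +94 kb and +121 kb in Pvt1 introns, and the 7 distal regions. At the other end, 19 regions (28.8%) were called in 1 library only, against 18.4% of the catalogue.

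**Figure D1:**
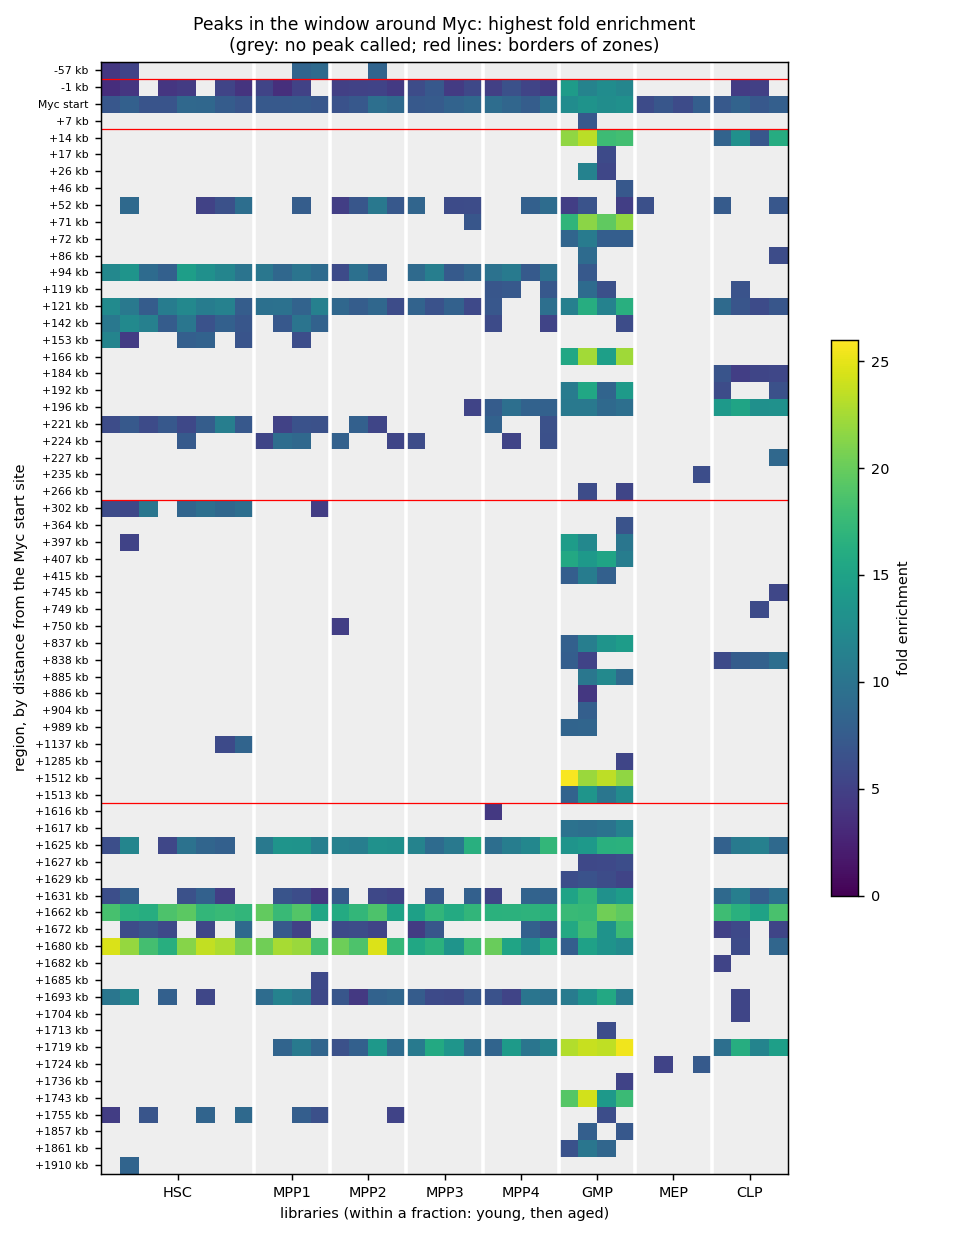
Highest fold enrichment of the peaks in each of the 66 regions (rows, by distance from the Myc start site) and each of the 36 libraries (columns, grouped by fraction), with grey where no peak was called and red lines between the zones of the window. Calls of GMPs alone fill much of the stretch between +364 kb and +1513 kb, MEP columns are nearly empty, and +1662 kb is filled in every fraction but MEP.

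Libraries differed in their number of peaks, and the count of window regions moved with it. In sorted bulk cells, fewer cells with an open region and less signal per cell cannot be told apart. The 4 GMP libraries held 52576 to 63288 peaks, the 4 MEP libraries 9581 to 11041 and all others 27087 to 40157. The deposited files of HSC replicates 3 and 4 of both ages are named in another style than the rest, and the study states that it raised the number of HSC samples for this assay. Which libraries were added, and whether in a separate experiment, is not given in the sources used here, so the calls and the age difference of HSCs are also given without them. Marker genes fitted the labels in part. The start sites of Mpo, Elane, Ctsg and Cebpe, granulocyte genes, were called in 4 of 4 GMP libraries each (Prtn3 had no region), Hlf and Meis1, stem cell genes, in 8 of 8 HSC libraries (but also in all MPP and GMP libraries), whereas Procr was called in 4 and Mecom in none of these 8. Of the CLP list, Il7r was called in all 4 libraries of CLPs, MPP4 and GMPs each, Rag1 in 2 of 4 CLP libraries and no other, and Ebf1 in 3 of 4 CLP libraries but also in 8 of 8 HSC libraries, and Dntt had no region. The start sites of Gata1, Klf1 and Epor, which define MEPs, had no region in any library, MEPs included. Whether the MEP libraries were labelled and processed as intended could not be checked here, and each missing MEP call below carries this limit. No start site of the B cell, T cell and erythroblast markers examined (8 genes) had a region in any library. Start sites of the mature neutrophil genes S100a8 and Ngp were called in all 4 GMP libraries and Ltf in 1, with a summed fold enrichment of the 3 genes of 31.1 to 38.5 in GMPs, 0 in HSCs and MEPs and at most 13.1 elsewhere. The part of these in the GMP results below was not tested.

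The Myc start site was accessible in every fraction, with its highest fold enrichment in GMPs. The fold enrichment was 12.6 and 13.4 in young GMPs and 12.7 and 13 in aged GMPs. In the 8 HSC libraries it ran from 6.74 over a median of 7.34 to 8.77. MEPs had 5.94 and 6.97 (young) and 5.98 and 7.80 (aged). The GMP values lay above those of all 32 other libraries, whereas the other fractions overlapped their neighbours in the order MPP4 (mean 8.82 ± 0.905, SD, n = 4), MPP2 (8.04 ± 1.37), MPP3 (7.96 ± 0.721), CLP (7.62 ± 0.523), HSC (7.56 ± 0.841, n = 8), MPP1 (7.25 ± 0.155) and MEP (6.67 ± 0.894). On the log2 scale, GMPs exceeded the mean of the other fractions by 0.76 ± 0.08 (SE, limma with Benjamini-Hochberg adjustment over the 5335 regions called in all libraries, adjusted p = 4.91e-10). However, 88.8% of these regions were called higher in GMPs and their median difference was 0.63. After each library was centred on its median, the Myc start difference was 0.10 ± 0.09 (adjusted p = 0.316), with 21.5% of regions higher and 28.2% lower. MEPs showed the reverse. Their Myc start value was lower by a log2 difference of -0.34 ± 0.08 (adjusted p = 0.000263) where 96.3% of regions were lower and the median was -0.82, and centring turned it to 0.52 ± 0.09 above the rest (adjusted p = 5.98e-06, 25.8% of regions higher and 16.9% lower). By percentile rank among the peaks of the library the MEP difference was -0.0360 percentile points (adjusted p = 0.996), so its direction depended on the scaling. The GMP libraries ranked at 62.3 to 66.8 on this measure. Only the ranges of MPP4 (44.8 to 63.4) and MEPs (31.1 to 69.3) overlapped theirs, and the other fractions ranked lower. In HSCs, MPP1 to MPP4 and CLPs, Myc start passed 0.05 on neither scale over the 36 libraries. Without the MEP libraries, a comparison added after seeing the data, it passed as lower in HSCs on the deposited scale. That log2 difference was -0.19 ± 0.07 (limma, adjusted p = 0.0270), where 31.4% of regions were lower and the median was -0.13. Centred, it was -0.04 ± 0.06 (limma, adjusted p = 0.716).

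**Figure D2:**
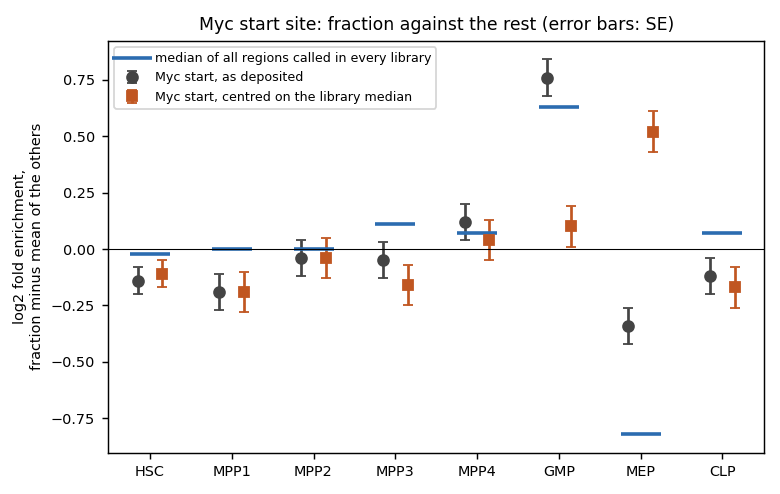
Difference in log2 fold enrichment at Myc start between each fraction and the mean of the other fractions, as deposited (circles) and centred on each library's median (squares), with SE bars. Horizontal marks give the median difference of all 5335 regions called in every library, which moved by 0.63 in GMPs and -0.82 in MEPs.

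The strongest cut site within Myc start also differed in place. Counted from the first base of the region, the summit lay between 687 and 695 in the 4 GMP libraries and between 681 and 702 in the 4 CLP libraries, but between 474 and 527 in the 4 MPP3 libraries. HSC libraries held it anywhere from 244 to 700. These are positions of single maxima in a region with several, and no test was made of them.

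The region at -1 kb, just before the gene, was called in 27 libraries and in no MEP library. Its fold enrichment was 14.3, 11.6, 12.6 and 11.9 in the 4 GMP libraries, and no other library exceeded 7.12. It was among the regions called less often in MEPs (0 of 4 against 27 of 32 libraries, Fisher's exact test, adjusted p = 0.0221), of which there were 6 in the window (9.09%) against 11.2% of all regions tested. With equal numbers of peaks -1 kb was called in the 4 GMP libraries alone, and its lower calling in MEPs did not pass. The start of Pvt1 (+52 kb), the non-coding gene that follows Myc and whose promoter is known to compete with that of Myc for enhancers, was called in 20 libraries of all 8 fractions, including 1 MEP library.

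Within Pvt1, several regions were called at a higher rate in HSCs. In these cells, 4 regions of the window were called more often than in the other 28 libraries (Fisher's exact test, Benjamini-Hochberg adjustment), where 1.31% of all 99670 regions tested were: +142 kb, +153 kb, +221 kb and +302 kb, all in Pvt1 introns. Of these, +142 kb was called in 8 of 8 HSC libraries with fold enrichment from 6.58 over a median of 9.09 to 12.3. Outside HSCs it was called in 3 of 4 MPP1 libraries (7.14, 9.98 and 8.22), in 2 MPP4 libraries and in 1 GMP library (8 of 8 against 6 of 28, adjusted p = 0.0154). The clearest HSC preference was that of +302 kb. It was called in 7 of 8 HSC libraries, at 5.94, 5.64 and 10.2 in young and 8.43, 9.5, 8.68 and 9.38 in aged cells, and outside HSCs in 1 aged MPP1 library at 4.75 (adjusted p = 0.00607). The region at +221 kb was found in 8 of 8 HSC libraries and 7 of 28 others (adjusted p = 0.0221), and +153 kb in 5 of 8 and 1 of 28 (adjusted p = 0.0431). For +221 kb these others were 3 of 4 MPP1, 2 of 4 MPP2 and 2 of 4 MPP4 libraries. A further pair of regions in Pvt1 was shared more widely. The +94 kb region was called in 8 of 8 HSC libraries (8.02 to 14.6), in 15 of 16 MPP libraries (5.91 to 11.1) and in 1 GMP library, and +121 kb in 30 libraries of every fraction but MEP, at 11.3, 16.2, 11.5 and 16.4 in GMPs and 7.61 to 12.4 in HSCs. None of the 4 HSC regions passed without HSC replicates 3 and 4, an alternative added after seeing the data, or when each library gave the same number of peaks. Of the 4, 1 passed when peaks had to cover 50% of the region, and 2 in each of 3 other settings, namely with peaks of a −log10 q of at least 10 only, without aged HSC replicate 2, and without aged HSC replicate 4.

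Of the 12 regions called in at least 18 libraries, 7 lay in the distal cluster. The +1662 kb region was called in all 32 libraries other than MEPs, and in 0 of 4 MEP libraries (Fisher's exact test, adjusted p = 0.000490). Its fold enrichment was of like size throughout: 16.2 to 19.4 in HSCs (median 17.3), 15.4 to 19.8 in MPP1, 15 to 18.7 for MPP2, 14.8 to 17.1 for MPP3, 16.5 to 16.8 for MPP4, 17.4 to 20.4 in GMPs and 15 to 18.5 in CLPs. The ranges overlapped, except that those of MPP3 and MPP4 lay below that of GMPs. With each library reduced to its 9581 strongest peaks, the number in the smallest library, it was still called in 32 of 32 and 0 of 4 (adjusted p = 0.000617, 3.43% of regions lower in MEPs). Among all 11159 regions called in those 32 libraries, 28.5% were called in no MEP library and 47.8% in all 4. Of the 1512 with a median fold enrichment within 10% of its 17.2, 24.6% were called in no MEP library. Relative to each library's median over these 11159 regions, a comparison chosen after seeing the data, +1662 kb was higher in HSCs by 0.19 ± 0.06 (limma, adjusted p = 0.0141, 16.2% of regions higher) and lower in GMPs by a log2 difference of -0.41 ± 0.08 (adjusted p = 4.26e-05, 29.3% lower). On the deposited scale, on which the median GMP difference of all these regions was 0.52, neither passed, at 0.04 (adjusted p = 0.661) in HSCs and 0.14 (adjusted p = 0.114) in GMPs, where the direction flipped.

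Further downstream, +1680 kb was the strongest of the cluster in 7 of 8 HSC libraries, with lower values in GMPs and CLPs. The 8 HSC libraries gave 16.3 to 24.5 (median 21.6). MPP1 libraries followed with 18.2 to 22.6, MPP2 with 17.3 to 24.6, MPP3 with 13.5 to 17.7 and MPP4 with 12.5 to 20.1. In GMPs the values were 7.79, 14.9, 13.4 and 12.5, in CLPs it was called in 2 of 4 libraries (5.93 and 8.56) and in MEPs in 0 of 4 (adjusted p = 0.00445 by Fisher's exact test). HSC and GMP values did not overlap, nor did GMP and CLP values apart from 1 young GMP library at 7.79. Over the 12408 regions called in all 28 libraries of HSCs, MPPs and GMPs, again chosen after seeing the data and centred, +1680 kb was higher in HSCs by 0.51 ± 0.09 (limma, adjusted p = 5.96e-05, 15.2% of regions higher), in MPP1 by 0.42 ± 0.11 (adjusted p = 0.0255, 2.99%) and in MPP2 by 0.41 ± 0.11 (adjusted p = 0.0429, 1.50%), and lower in GMPs by a difference of -1.17 ± 0.11 (adjusted p = 7.88e-10, 28.9% lower). The GMP difference was -0.65 ± 0.13 on the deposited scale (adjusted p = 5.31e-05) and that of HSCs 0.35 ± 0.10 (adjusted p = 0.00744), whereas those of MPP1 and MPP2 no longer passed. With equal numbers of peaks it was called in 8 of 8 HSC and 15 of 16 MPP libraries, and in 0 of 4 libraries each of GMPs, CLPs and MEPs. Its lower calling in MEPs did not pass in that setting.

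The +1719 kb region had the opposite order. It was called in 0 of 8 HSC libraries, in 3 of 4 MPP1 libraries (8.36, 10.6 and 8.45) and in every library of MPP2 (6.45 to 13.9), MPP3 (9.40 to 15.8), MPP4 (8.36 to 14.2) and CLPs (9.53 to 16.2). GMPs reached 23.0, 23.8, 23.5 and 25.4, above all other libraries on the deposited scale, on which most regions were higher in GMPs. Its absence from HSCs against 23 of 28 calls elsewhere was the single region of the window called less often in HSCs (adjusted p = 0.0107, 0.588% of all regions). It did not pass without HSC replicates 3 and 4 (0 of 4 HSC libraries) or with equal numbers of peaks, where GMPs alone passed (4 of 4 against 5 of 32, adjusted p = 0.0206, 8.89% of regions higher). In MEPs it was likewise not called in any of 4 libraries. The upper limit of signal that a missing call allows cannot be given, since the files list no reads outside peaks.

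**Figure D3:**
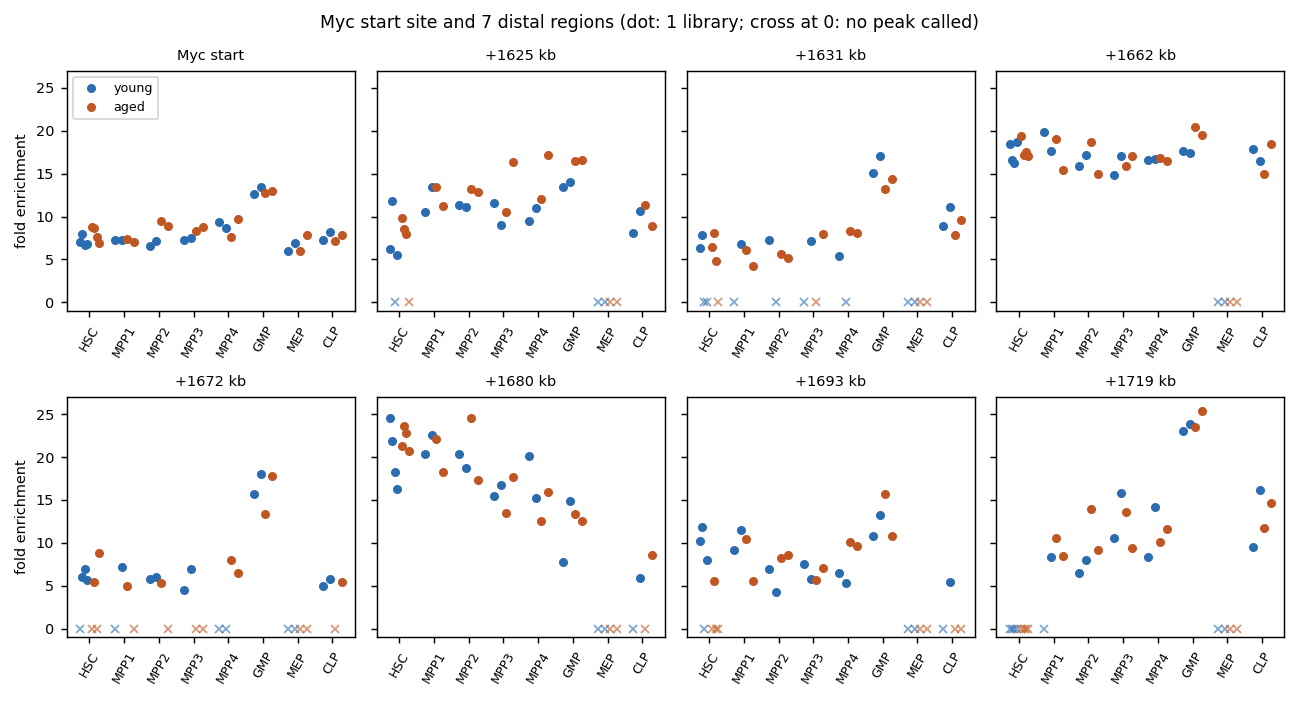
Fold enrichment at Myc start and the 7 distal regions in every library of the 8 fractions (blue, young, and orange, aged), with crosses at 0 for libraries without a peak. Points of +1662 kb stay between 14.8 and 20.4, those of +1680 kb are highest in HSCs, MPP1 and MPP2, and those of +1719 kb are missing in HSCs and reach 25.4 in GMPs.

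Of the 4 other shared distal regions, +1625 kb was called in 30 libraries. It was missing from 2 of 8 HSC libraries, where its mean was 8.33 ± 2.31 (SD, n = 6), and all 4 MEP libraries, and had means of 12.2 ± 1.51 in MPP1 and 15.2 ± 1.64 in GMPs (n = 4 each). On the deposited scale, on which most regions were higher in GMPs, the GMP values lay above all others at +1631 kb, with 15.1, 17, 13.2 and 14.4 against at most 11.1 elsewhere, and at +1672 kb, with 15.7, 18, 13.4 and 17.8 against at most 8.86. At +1672 kb the summits of the 4 GMP libraries lay between 292 and 305 of the region's 821 bases, whereas those of the 17 other libraries that called it were scattered from 160 to 667. The +1693 kb region was called in all 16 MPP libraries (4.27 to 11.5), in 4 of 4 GMP libraries (10.8 to 15.7), in 4 of 8 HSC libraries and in 1 CLP library.

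GMPs held the largest number of regions. Their 4 libraries called 29, 40, 32 and 34 regions of the window, against 10 to 18 in HSCs, 9 to 18 in MPPs, 12 to 17 in CLPs and 1 to 3 in MEPs. Per 1000 regions called in the same library, GMPs had 0.586 ± 0.0465 and the other libraries a mean of 0.393 (exact permutation test, two-sided, Benjamini-Hochberg adjustment over the 8 fractions, adjusted p = 0.00278). MEPs had 0.202 ± 0.0733 against 0.441 (adjusted p = 0.000136), which did not pass with equal numbers of peaks (adjusted p = 0.212). The other fractions lay between 0.371 (MPP3) and 0.483 (CLP) with adjusted p of 0.483 or more.

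**Figure D4:**
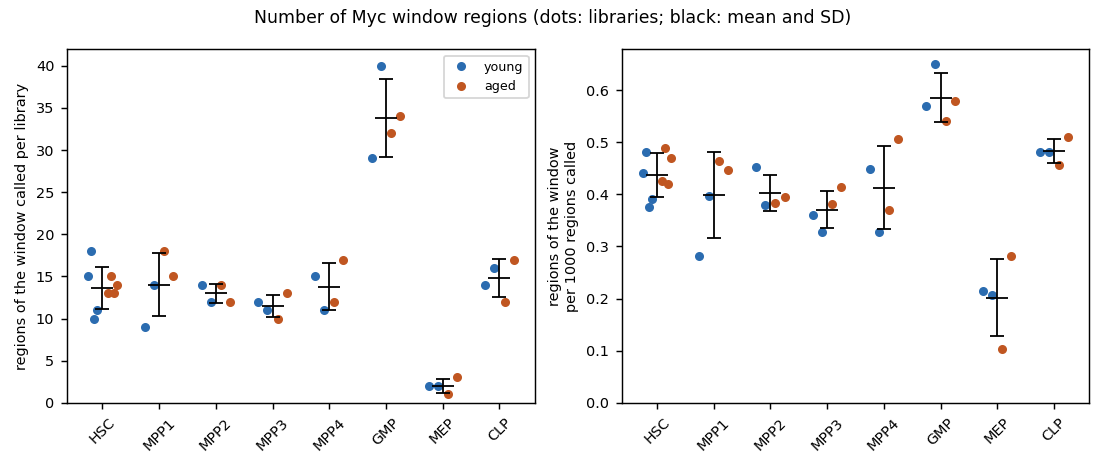
Number of window regions called per library (left) and the same per 1000 regions called in that library (right) by fraction, with points for young (blue) and aged (orange) libraries and bars for the mean and SD. GMP libraries lie highest on both scales (29 to 40 regions, 0.541 to 0.651 per 1000) and MEP libraries lowest.

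Region by region, 22 of the 66 were called more often in GMPs than elsewhere, or 33.3%, against 29% of all 99670 regions tested (65 of the window, since Myc start was called everywhere), so the count is near the background. Of the 22, 6 lay in the distal part, and 17 were called in at least 2 GMP libraries and in no library of another fraction. The share of such regions in the whole catalogue was not counted, so the 17 cannot be read as particular to the window. Of these 17, the ones with the highest median in GMPs were +1512 kb, with 25.7, 22.1, 23.4 and 21.7, then +166 kb in Pvt1, with 15.6, 22.4, 14.7 and 22.3, and +1743 kb in an intron of the non-coding gene 4930449C09Rik, with 19.1, 24.2, 14.1 and 17.7. Each was called in 4 of 4 GMP libraries and 0 of 32 others (adjusted p = 0.000183). With equal numbers of peaks 4 regions passed in GMPs: -1 kb, +71 kb, +1512 kb and +1719 kb. In that setting 8.89% of all 27589 regions tested were called more often in GMPs, so this count does not set the window apart.

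Other regions joined GMPs with lymphoid cells. The +14 kb region, between Myc and Pvt1, was called in 4 of 4 GMP libraries (21.7, 23.3, 17.8 and 18.1), 4 of 4 CLP libraries (8.28, 13.1, 7.03 and 16.1) and no other. In a Pvt1 intron, +196 kb was called in 4 of 4 MPP4 libraries (7.60, 9.45, 8.13 and 8.04), 4 of 4 GMP libraries (10.5, 10.5, 8.92 and 9.54), 4 of 4 CLP libraries (14.1, 15.2, 13.1 and 13.2) and 1 MPP3 library. CLPs called 2 regions of the window more often than the rest, where 1.47% of all regions were: +184 kb in Pvt1, called in 4 of 4 CLP libraries (6.79, 4.85, 5.4 and 5.5) and 0 of 32 others (adjusted p = 0.00334), and +838 kb, in 4 of 4 (5.85, 7.54, 8.10 and 9.35) and in both young GMP libraries (adjusted p = 0.0278). Without any one CLP library 1 of the 2 passed, and neither did at a −log10 q of at least 10. With equal numbers of peaks +196 kb passed instead (4 of 4 CLP libraries against 0 of 32, adjusted p = 0.00146, 3.55% of regions).

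MEPs called 4 of the 66 regions in any library. Apart from Myc start these were +52 kb (6.33), +235 kb (6.15) and +1724 kb, which was called in 1 young (5.20) and 1 aged MEP library (7.40) and in none of the other 32. Those called less often than elsewhere were -1 kb, +121 kb, +1625 kb, +1662 kb, +1680 kb and +1693 kb. With equal numbers of peaks only +1662 kb still passed, and 3 of them did at a −log10 q of at least 10 or with 50% cover. In MPP1 to MPP4 no region of the window passed in either direction by Fisher's exact test, nor did any in the catalogue, and the unadjusted p was under 0.05 for 1 window region of MPP1 and 2 of MPP4, all higher, and for 0 of MPP2 and MPP3.

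No region of the window passed a test of age. HSCs called 13.5 ± 3.70 regions when young and 13.8 ± 0.957 when aged (mean ± SD, n = 4 each, exact permutation test, two-sided, p = 1.00, smallest possible p = 0.0286). The difference was -2.50 regions in replicates 1 and 2 alone and 3 regions in replicates 3 and 4 alone, each with 2 libraries per age. The mean difference over the 8 fractions, aged minus young, was 0.594 regions (two-sided permutation test within fractions, p = 0.559), and it ranged from -1.50 in GMPs to 5 in MPP1, where 2 libraries per age allow no p below 0.333. Of 53 regions with an informative fraction, none differed by age in calls (exact conditional test, Benjamini-Hochberg adjustment over 85292 regions, 0% called), and none had an unadjusted p under 0.05, against 1169 of these 85292 regions. The 19 window regions called in 1 library cannot reach such a p whatever the age of that library. With few calls per region, this result does not set the window apart from the catalogue. By this exact test the smallest p-values were those of +1755 kb, at the start of the non-coding gene Gm41336, with 6 aged and 2 young calls (p = 0.196), +1631 kb with 14 and 10 (p = 0.232), +1693 kb with 11 and 14 (p = 0.257) and +52 kb with 12 and 8 (p = 0.312).

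In HSCs, 7 regions had a peak in all 8 libraries and so a fold enrichment to compare, and none of them passed (limma over 17340 such regions, 0% called at an adjusted p under 0.05, 1300 with an unadjusted p under 0.05). The study itself, working from read counts, did report regions that opened or closed with age in HSCs. The 0% called here therefore does not mean that no region changed with age. The largest difference was that of +142 kb. It measured 10.4, 12.3, 11.3 and 7.56 in young and 10.2, 6.58, 7.95 and 6.99 in aged HSCs, a log2 difference of -0.38 ± 0.19 (SE, limma, adjusted p = 0.682), and the groups overlapped. At Myc start young HSCs had 7.07, 7.93, 6.74 and 6.76 and aged HSCs 8.77, 8.72, 7.60 and 6.88, a difference of 0.16 ± 0.15 (adjusted p = 0.878). The distal regions differed less, by 0.03 ± 0.14 at +1662 kb (adjusted p = 0.990) and 0.14 ± 0.16 at +1680 kb (adjusted p = 0.912). The remaining 3, +94 kb (0.22), +121 kb (0.03) and +221 kb (0.22), had adjusted p from 0.857 to 0.994. Over all fractions Myc start was higher in aged cells by 0.10 ± 0.05 (limma, adjusted p = 0.939, 0% of 5335 regions called and 277 with an unadjusted p under 0.05), and the age difference did not vary detectably between fractions (limma F test, adjusted p = 1.000).

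**Figure D5:**
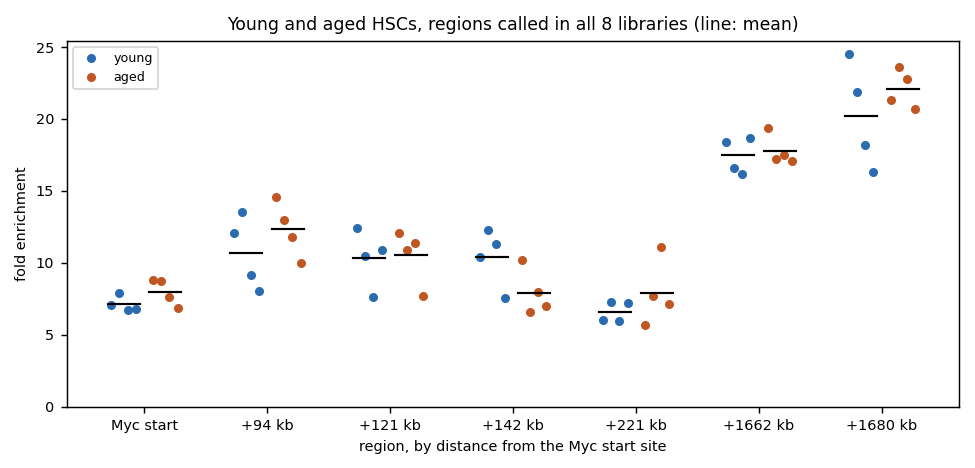
Fold enrichment in the 4 young (blue) and 4 aged (orange) HSC libraries for the 7 window regions called in all 8 of them, with lines at the means. Young and aged points overlap at each region, and the largest gap between means, at +142 kb, did not pass the test.

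Sequence features shared by the regions were searched as plain motifs within 100 bp of the median summit on both strands, and compared with the 104825 catalogue regions whose sequence was read the same way. The GATA motif AGATAA stood in 10.3% of them. The RUNX motif TGTGGT stood in 25.7%. For factors of the ETS family, ACAGGAAG stood in 7.55%, and for their member PU.1, GAGGAAGT stood in 8.44%. The C/EBP motif TTGCNNAA stood in 13.2%. An E-box, as CAGCTG or CAGGTG, stood in 24.6%. The E-box of MYC and MAX, CACGTG, stood in 4.39%. The MYB motif AACGG stood in 11.3%. The AP-1 motif TGANTCA stood in 11.4%. The MEIS motif TGACAG stood in 16.1%. The HOX/PBX motif TGATTTAT stood in 0.881%, and the STAT motif TTCNNNGAA in 5.68%. The CTCF core, as CNAGGGGGC, CNAGGTGGC, CNAGAGGGC or CNAGATGGC, stood in 6.20%. TGACAG was held by 15 of 66 regions (22.7%) and by 4 of the 7 shared distal regions, +1631 kb, +1672 kb, +1693 kb and +1719 kb. Of the other motifs, shares in the window above those of the catalogue were found for AGATAA (12 regions, 18.2%), GAGGAAGT (9 regions, 13.6%), C/EBP (16.7%), the E-box (28.8%), MYB (12.1%), HOX/PBX (1.52%) and STAT (9.09%), and lower ones for RUNX (18.2%), ETS (4.55%), AP-1 (10.6%) and CTCF (3.03%). Among the 22 regions called more often in GMPs, 7 held TTGCNNAA (31.8%), the site of C/EBP factors that govern granulocyte genes, 3 held ACAGGAAG (13.6%) and 1 held an E-box (4.55%). The shares among all catalogue regions called more often in GMPs were not counted, so these cannot be read as particular to the window. The distal +1672 kb region held the C/EBP motif at 2 places, centred 86 bases before and 62 bases after the median summit, in the sequence printed above. In +142 kb and +1672 kb the E-box and the MEIS motif overlapped, and +1693 kb had the GATA, RUNX, AP-1 and MEIS motifs in 1 window. No region held CACGTG, and +1625 kb held none of the motifs. A match is a description of letters and no test was made of these shares.

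The partners and antagonists of MYC were compared by the regions over their start sites. The list held Max, the shared partner, the relatives Mycn and Mycl, the antagonists Mxd1, Mxd3, Mxd4, Mxi1, Mnt and Mga, and Mlx with its partners Mlxip and Mlxipl. All 12 had a region, and 5 (Max, Mxd1, Mxd3, Mxd4 and Mlxip) were called in all 36 libraries. Mycn was called in all 32 libraries other than MEPs (fold enrichment 6.73 to 17.9) and in 0 of 4 MEP libraries (adjusted p = 0.000490 by Fisher's exact test), the same pattern of calls as +1662 kb. Mycl and Mlxipl were also called less often in MEPs (each 30 of 32 against 0 of 4, adjusted p = 0.00445). Of all regions tested, 11.2% were lower in MEPs. Of these 12 genes 3 were, and the 5 called in all 36 libraries could not be tested. Of the regions called in all 32 other libraries, 28.5% had no MEP call. No gene of the list passed in another fraction, and none of the 6 that could be tested for age did.

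Start sites whose course across the 36 libraries was most like that of Myc start, on centred log2 fold enrichment, were those of Srsf11 (Pearson's r = 0.81), Gm10801 (0.79), Gm17535 (0.74), Ric8b (0.70) and Car7 (0.69), out of 5275 genes with a median r of 0.03. Without the 4 MEP libraries these became 0.61, 0.54, 0.43, 0.57 and 0.30 over 32 libraries. The values are descriptive, since libraries of a fraction share their cells' state and peak number.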

How the data were processed

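Per the labels and the methods of the study, single reads were mapped to mm10 with Bowtie2, subsampled to equal numbers with SAMtools and given to MACS2 2.2.6, which called narrow peaks per library at a q-value of 0.001, so depth in reads is not given in the files used here. The deposited peak lists hold a fold enrichment over the expected background (a ratio), the −log10 p-value and −log10 q-value, all calculated by the authors with MACS2, and a summit position. No columns of comparisons were used. Despite the subsampling, libraries held 9581 to 63288 peaks, and calls and fold enrichment shift with that number.

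Here the 1358077 entries, 1204561 peaks after merging entries of the same interval, were joined into 105005 regions in Python 3.11.15 (numpy 2.4.6, pandas 2.3.3, scipy 1.17.1). Calls were compared by Fisher's exact test (fraction) and an exact conditional test (age, within fractions), and log2 fold enrichment by limma 3.58.1 in R 4.3.3 on regions called in every library compared, without a pseudocount, all with Benjamini-Hochberg adjustment over all regions and a threshold of 0.05. The count models of the study were not run, since the files hold no reads. Genes were annotated with GENCODE M21 and sequence was read from RefSeq GRCm38. Named regions were Myc start, the 5 called in most libraries, the distal regions in at least 18 libraries, up to 3 per fraction by adjusted p and the smallest age p-values. The members, lists and tests were chosen with earlier results of these data known. A marker gene of the lists is not reported here. The scripts were tested on simulated data. Alternatives were a stricter q-value, 50% cover of a region, equal numbers of peaks, centring, percentiles, a replicate block and leaving out libraries.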

Additional observations from a re-analysis of the deposited data

Results flagged for a closer look

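The fold enrichment of +1662 kb in aged HSC replicate 1 was 19.4, apart from the 3 other aged HSC libraries at 17.2, 17.5 and 17.1 by Dixon's test at the 95% level. Chance alone would mark about 1 in 20 such groups of 4, and the value lies within the range of the 32 libraries that called the region.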

How the results depend on the processing

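No age call arose under any alternative run. The mean age difference in window regions was small enough to change sign in HSCs, to -0.500 with 50% cover, -2.50 in HSC replicates 1 and 2 only and between -0.917 and 1.75 without any one library, and over all fractions between -0.0938 (without young GMP replicate 1) and 1.28. Replicate numbers were not taken to pair the libraries, since correlations of deviations ran from -0.0976 to 0.241 and were over 0.1 in 7 of 18 pairs (both of GMPs, MPP3 and MPP1, and 1 of HSCs). With the replicate block the difference was 0.594 (p = 0.546 by permutation), in HSCs 0.250, and the counts of regions differing by age stayed at 0.

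Per 1000 regions, differences near 0 turned sign: MPP1 to 0.0122 and MPP4 to 0.00985 at a −log10 q of at least 10, MPP3 to 0.0122 and CLP to -0.0169 with equal numbers of peaks, HSC to -0.00512 without the MEP libraries (chosen after seeing the data), and without any one library MPP1 between -0.0412 and 0.0201 and MPP4 between -0.0319 and 0.0274. The MEP deficit shrank to -0.158 (adjusted p = 0.212) with equal numbers of peaks.

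Counts of window regions passing in calls moved by over 1.5 times. At a −log10 q of at least 10 they were 2 higher in HSCs, 3 lower in MEPs and 0 higher in CLPs. With 50% cover they were 1 higher in HSCs, 1 lower in GMPs and 3 lower in MEPs. With equal numbers of peaks they were 0 higher and 0 lower in HSCs, 4 higher in GMPs (2 shared with the 22), 1 lower in MEPs and 1 higher in CLPs (not among the 2). Without HSC replicates 3 and 4 they were 0 higher and 0 lower in HSCs (chosen after seeing the data). Without any one library they ranged from 2 to 4 higher in HSCs, 1 to 3 in CLPs and 16 to 22 in GMPs, and from 4 to 6 lower in MEPs.

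At Myc start, centring gave 0.10 in GMPs (not past the threshold) and 0.52 in MEPs (turned), percentile ranks gave -0.0360 points in MEPs (not past), and MPP2 lay between -0.11 and 0.03 without any one library (0.03 without young MPP2 replicate 1). Age differences in HSCs turned at +221 kb (-0.01) and +1680 kb (-0.05) in replicates 1 and 2 only and at +1662 kb (-0.01) in replicates 3 and 4 only, and without any one library lay between -0.11 and 0.17 at +121 kb and between -0.02 and 0.06 at +1662 kb. Of the comparisons added after seeing the data, the deposited scale turned +1662 kb in GMPs (0.14), MPP2 (-0.06 over 28 libraries, -0.05 over 32) and CLPs (-0.03), and took +1662 kb in HSCs (0.03 over 28 libraries, 0.04 over 32) and +1680 kb in MPP1 (0.33) and MPP2 (0.27) past the threshold no longer. The causes were not tested. Peak lists without reads limit all calls: a region without a peak may hold signal below the caller's threshold, and fold enrichment is missing there.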

Other observations

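Several sparse regions have a course of their own. The -57 kb region, the only one upstream of the gene's surroundings, was called in 2 young HSC libraries (4.19 and 5.24), 2 aged MPP1 libraries (8.36 and 8.97) and 1 aged MPP2 library (8.41), and in no young MPP or aged HSC library. The +1137 kb region was called in aged HSC replicates 3 and 4 (5.88 and 8.34), whose files are named in another style, and in no other library. Neither passed the test of age in calls (exact conditional test, adjusted p = 1.00), which could not decide on these patterns. At +1137 kb both calls were aged, and the unadjusted p of the same test was still 0.429. At -57 kb the test adds up the fractions, so that young HSC calls and aged MPP calls offset each other.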
